A study of Saccharomyces cerevisiae with 15 samples.

Results

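Keto acid decarboxylases that use thiamine diphosphate form a family of 5 genes in Saccharomyces cerevisiae, ARO10 (YDR380W), PDC1 (YLR044C), PDC5 (YLR134W), PDC6 (YGR087C) and THI3 (YDL080C). Their messenger RNA was followed across 5 nitrogen sources. The genes were taken by name, each through the probe sets that the platform annotation assigns to that gene only. Each of the 5 had 1 such probe set, among the 5656 genes that the array names in this way, and none of the 5 carried a suffix for sequence shared with other genes. The haploid prototrophic strain CEN.PK113-7D, of mating type a, was grown in aerobic chemostats, continuous cultures held at a constant growth rate, in which glucose (7.5 g/l) limited growth. The sole nitrogen source was leucine (10.0 g/l), phenylalanine (5.0 g/l), methionine (11.3 g/l), proline (8.8 g/l) or asparagine (5.0 g/l), with 3 arrays for each and 15 in all. All groups shared the strain, the added potassium sulfate (6.6 g/l), a dilution rate of 0.10 per hour, a temperature of 30 °C and a pH of 5.0. The series compares preferred with less preferred nitrogen sources. The labels do not say which is which, and asparagine was taken as the reference. The labels give triplicates for each condition without saying that they were separate cultures. The p-values therefore cover only the variation among these arrays, which may be technical.

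These enzymes remove carbon dioxide from a 2-oxo acid and leave an aldehyde. When leucine, phenylalanine or methionine supplies nitrogen, a transaminase takes the amino group, the carbon skeleton stays behind as such an acid, and the Ehrlich pathway decarboxylates it and turns the aldehyde into a fusel alcohol or a fusel acid. Proline and asparagine are broken down to glutamate and to aspartate and ammonium, and do not pass through this pathway. Aro10 is the decarboxylase of broad range in the Ehrlich pathway, and the transcription activator Aro80 switches its gene on when aromatic amino acids are present. Pdc1, Pdc5 and Pdc6 are the pyruvate decarboxylases, which open the route from pyruvate to ethanol, with Pdc1 as the major form. Thi3, once described as a keto acid decarboxylase, is known as a thiamine sensor that acts with Thi2 and Pdc2 on the genes of thiamine synthesis.

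The values are signal intensities of Affymetrix YG_S98 arrays, summarised per probe set, and the trimmed means of the deposited arrays were nearly equal (150.09 to 150.15). The median signal of an array lay between 38.2 and 55.1, the lowest on the third phenylalanine array. Actin has probe sets at both ends of its transcript, and the ratio of their signals (3' over 5'), which rises as RNA degrades, averaged 2.11 with leucine, 2.81 with phenylalanine, 1.76 with methionine, 1.90 with proline and 2.77 with asparagine. The signal of transcripts spiked in as hybridisation controls averaged 226, 450, 173, 139 and 351 in the same order. A settings file deposited with the first phenylalanine array records that it was run again after the scanner's detector voltage had been adjusted, and values without that array are given where they differ. Precision is limited by having 3 arrays a group. Signals of different probe sets are not set against each other, since probes differ in how strongly they bind. The log2 scale used below has signals under 1.9 raised to 1.9, which touched no value of the 5 genes.

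In 3 of the 5 genes the signal differed among the nitrogen sources, a share near that of all probe sets tested. Over the 5 sources, ARO10 (adjusted p = 1.4e-12), PDC6 (2.2e-05) and PDC1 (0.0080) passed limma's moderated F test, and PDC5 (0.21) and THI3 (0.41) did not. Of all 7459 probe sets tested, 52.2% passed that test. ARO10 ranked 3 among them by the size of F, PDC6 ranked 432 and PDC1 2139. The highest group mean lay 54.1-fold above the lowest for ARO10, 4.75-fold for PDC6 and 1.87-fold for PDC1, with means taken on the log2 scale.

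**Figure D1:**
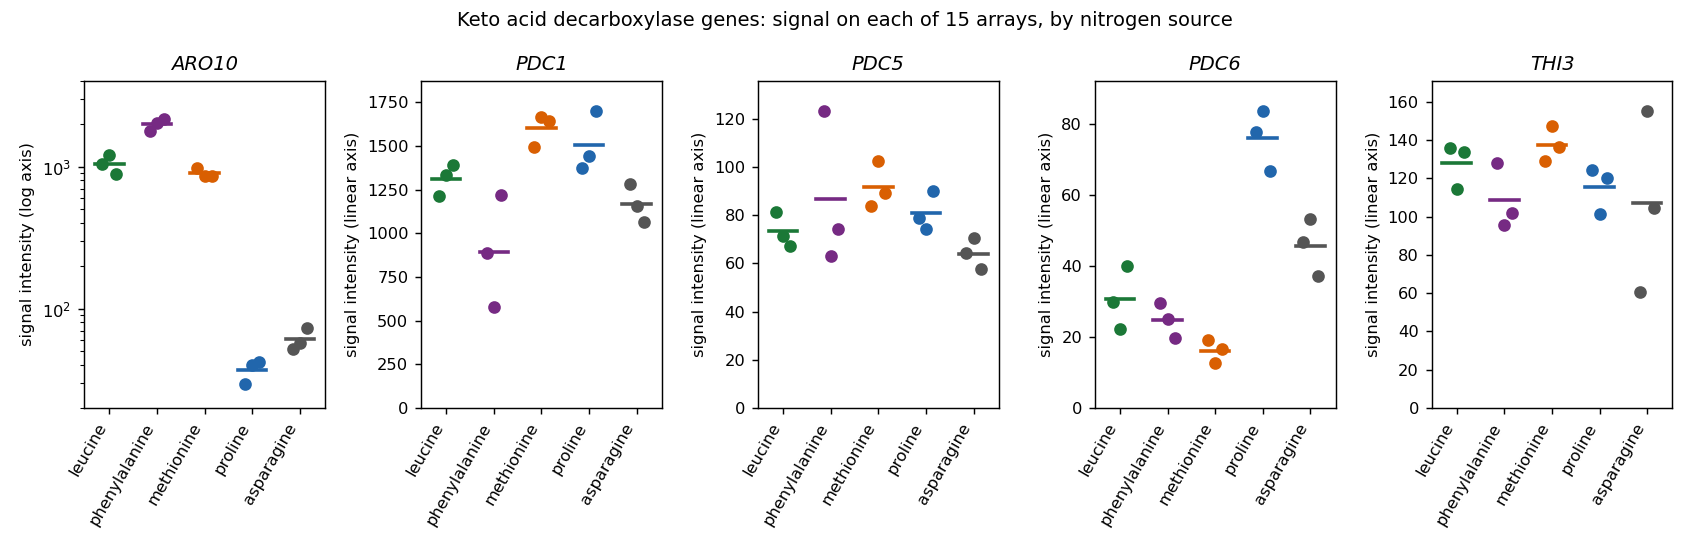
Signal intensity of the 5 decarboxylase genes on each array (points, 3 per nitrogen source) and the mean of each source (bars), with a log axis for ARO10 and linear axes from 0 for the others. ARO10 lay between 851.7 and 2176.1 with leucine, phenylalanine and methionine and between 29.4 and 72.7 with proline and asparagine, while PDC6 was highest with proline and lowest with methionine.

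ARO10 followed the 3 sources that feed the Ehrlich pathway. Its signal was 1041.8, 1215.5 and 880.3 on the leucine arrays, 1778.2, 2034.7 and 2176.1 on the phenylalanine arrays, 978.4, 851.7 and 858.8 on the methionine arrays, 29.4, 40.2 and 42.1 on the proline arrays and 52.3, 57.7 and 72.7 on the asparagine arrays. Every array of leucine, phenylalanine and methionine was above every array of proline and asparagine. The gene stood at the 98.0 to 98.4 percentile of an array's signals with phenylalanine and at the 50.4 to 56.2 percentile with asparagine.

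Against asparagine, ARO10 averaged 1996 ± 202 with phenylalanine and 60.9 ± 10.6 with asparagine (SD, n = 3 each), a log2 difference of 5.04 ± 0.17 (SE) or 33.0-fold (limma, adjusted p = 9.5e-12). With leucine it averaged 1046 ± 168, 17.2-fold higher than with asparagine (log2 difference 4.10 ± 0.17, limma, adjusted p = 1.0e-10). With methionine it averaged 896 ± 71.2, 14.8-fold higher (3.89 ± 0.17, limma, adjusted p = 1.1e-10). These differences ranked 2 with phenylalanine, 8 with leucine and 13 with methionine among the 7459 probe sets ordered from the largest increase down. With proline the gene was lower than with asparagine, at 37.2 ± 6.85 against 60.9 ± 10.6, 1.64-fold (log2 difference -0.71 ± 0.17, limma, adjusted p = 0.013). The lower level with proline was not called with median centring of the arrays (-0.58, adjusted p = 0.051), with the actin ratio (-0.67, 0.067) or the hybridisation control signal (-0.51, 0.15) as covariate, or without asparagine 3 or proline 1, where the adjusted p reached 0.075.

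The 3 Ehrlich sources were not alike for ARO10. Phenylalanine gave 2.22-fold more signal than methionine (log2 difference 1.15 ± 0.17, limma, adjusted p = 2.5e-04). Leucine gave less than phenylalanine, with a log2 difference of -0.94 ± 0.17 (adjusted p = 0.0016 in limma), and in both comparisons the arrays did not overlap. Leucine and methionine arrays overlapped, at 880.3 to 1215.5 against 851.7 to 978.4, and the difference did not pass (log2 difference 0.21, 95% interval -0.14 to 0.57, adjusted p = 0.39). The levels thus ran from phenylalanine through leucine and methionine, which could not be ordered, to asparagine and then proline. The last of these steps was lost under the alternatives given above. Of the 10 pairs of sources, ARO10 passed in 9. Set against proline, it was 28.2-fold higher with leucine, 54.1-fold with phenylalanine and 24.3-fold with methionine. Without the rerun phenylalanine array or any other single array, the differences of phenylalanine, leucine and methionine from asparagine stayed at 4.94 to 5.18, 3.99 to 4.24 and 3.79 to 4.03 on the log2 scale.

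**Figure D2:**
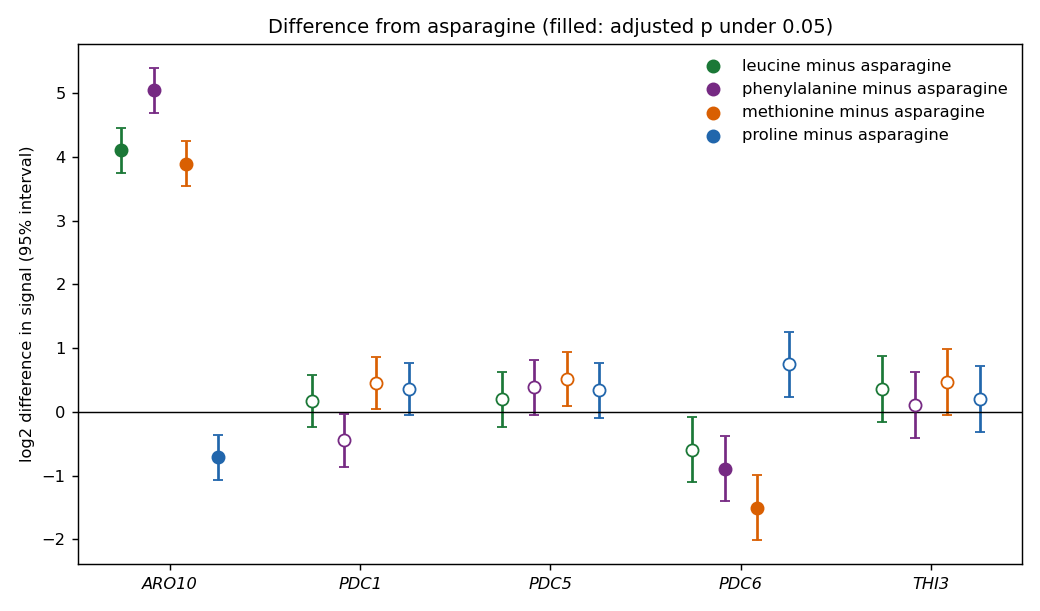
Log2 difference in signal from asparagine for each gene and source (points) with its 95% interval from limma (bars), filled where the adjusted p was under 0.05. ARO10 stood at 3.89 to 5.04 with leucine, phenylalanine and methionine and at -0.71 with proline, and the intervals of the other genes lay between -2.01 and 1.25.

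PDC6, the minor pyruvate decarboxylase isozyme, is known to be induced when sulfur is scarce and to be poor in sulfur amino acids. Here the gene was highest with proline and lowest with methionine, and a part of sulfur supply in this was not tested. Its signal was 29.9, 22.4 and 40.0 with leucine, 29.5, 25 and 19.6 with phenylalanine, 19.2, 12.7 and 16.6 with methionine, 77.8, 83.8 and 66.7 with proline and 46.7, 53.3 and 37.1 with asparagine. All proline arrays were above all others, all methionine arrays were below all others, and leucine overlapped with phenylalanine and with asparagine. These are dim signals, at the 28.3 to 33.9 percentile of their arrays with methionine and the 56.3 to 60.9 percentile with proline.

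Against asparagine (45.7 ± 8.15), PDC6 was lower with methionine, at 16.2 ± 3.27, 2.84-fold (log2 difference -1.50 ± 0.24, limma, adjusted p = 1.9e-04). It was also lower with phenylalanine, at 24.7 ± 4.96, 1.86-fold (-0.89 ± 0.24, limma, adjusted p = 0.014). The phenylalanine call was lost with quantile normalization (-0.57, adjusted p = 0.10), median centring (-0.58, 0.074), array weights (-0.74, 0.068), without asparagine 2 and without phenylalanine 3, where the adjusted p reached 0.061. With leucine the mean was 30.8 ± 8.83 and the difference did not pass (-0.60, 95% interval -1.10 to -0.09, adjusted p = 0.094 in limma). With proline it was 76.1 ± 8.68, and the difference fell just short of the threshold (0.75, 95% interval 0.24 to 1.25, adjusted p = 0.052). The proline difference was called with quantile normalization (0.90, adjusted p = 0.023), median centring (0.88, 0.022), array weights (0.82, 0.0074), a fit of the 6 proline and asparagine arrays alone (0.75, 0.022), and without leucine 2, leucine 3 or any 1 phenylalanine array (0.037 to 0.048). The leucine difference was called without leucine 3 (-0.80, 0.041) and with the hybridisation control signal as covariate (-0.86, 0.012).

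Proline set PDC6 apart from the 3 Ehrlich sources. With methionine the gene was 4.75-fold lower than with proline (log2 difference -2.25 ± 0.24, limma, adjusted p = 4.7e-06), with phenylalanine 3.11-fold lower (-1.64 ± 0.24, 1.6e-04) and with leucine 2.53-fold lower (-1.34 ± 0.24, 8.1e-04). Leucine exceeded methionine by 1.88-fold (0.91 ± 0.24, adjusted p = 0.017), a call lost without leucine 3 (0.70, adjusted p = 0.079) or methionine 2 (0.75, 0.084). PDC6 passed in 6 of the 10 pairs. In the order proline, asparagine, leucine, phenylalanine and methionine, no step between neighbours passed, with adjusted p of 0.052, 0.094, 0.45 and 0.079.

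PDC1, the major pyruvate decarboxylase, varied over a narrow range. Its signal was 1212.1, 1334.0 and 1389.2 with leucine, 888.6, 578.0 and 1216.6 with phenylalanine, 1495.5, 1665.7 and 1640.9 with methionine, 1371.5, 1443.0 and 1701.2 with proline and 1284.7, 1158.0 and 1067.4 with asparagine. The phenylalanine arrays held the 2 lowest values and spread most, with an SD of 319 against 90.6 to 173 in the other sources. On these arrays the actin ratio was 2.02, 3.35 and 3.06 and the hybridisation control signal 344, 198 and 808 in array order, and their part in the spread was not tested.

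None of the 4 sources differed from asparagine in PDC1 by the adjusted test. The log2 difference was 0.45 with methionine (95% interval 0.04 to 0.86, adjusted p = 0.074), 0.36 with proline (-0.05 to 0.77, 0.24), 0.17 with leucine (-0.24 to 0.58, 0.60) and -0.45 with phenylalanine (-0.86 to -0.04, 0.10). All 3 methionine arrays and all 3 proline arrays lay above the asparagine arrays. The share of all probe sets whose arrays separate in this way was not counted, here or for the other genes. The methionine difference was called with median centring (0.66, adjusted p = 0.042), array weights (0.50, 0.0045), the 6 arrays alone (0.45, 0.0058) and the hybridisation control signal as covariate (0.78, 0.0041), and without phenylalanine 2 or 3 (0.45, 0.011 and 0.019). The phenylalanine difference was called with quantile normalization (-0.58, adjusted p = 0.017), with the hybridisation control signal as covariate (-0.49, 0.024) and without phenylalanine 3 (-0.70, 0.0070), and the proline difference with that covariate alone (0.79, 0.033). The 3 pairs that passed all held phenylalanine, which was 1.87-fold lower than methionine (log2 difference -0.90 ± 0.19, limma, adjusted p = 0.0043) and 1.75-fold lower than proline (-0.81 ± 0.19, 0.0079). Leucine was higher than phenylalanine by 1.53-fold (0.62 ± 0.19, adjusted p = 0.048), with arrays that overlapped, and this call was lost when any of 14 of the 15 arrays was left out (adjusted p of 0.053 to 0.14), the exception being phenylalanine 3 (0.87, 0.0029). It was also lost with 5 other alternatives, among them median centring (0.38, 0.34). The call against proline was also lost with median centring (-0.63, adjusted p = 0.073).

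PDC5, which is known to rise when PDC1 is lost and to share in the decarboxylation of phenylpyruvate, showed no change that passed. Its signal was 81.5, 71.3 and 67.3 with leucine, 123.4, 63.0 and 74.4 with phenylalanine, 83.7, 102.4 and 89.1 with methionine, 78.8, 74.4 and 90.0 with proline and 64.4, 70.4 and 57.6 with asparagine. The highest value of all was on the first phenylalanine array, the one that was run again, and without it the phenylalanine difference was 0.10 in place of 0.38 on the log2 scale and the F test reached an adjusted p of 0.048. Against asparagine (64.1 ± 6.40), PDC5 averaged 91.7 ± 9.62 with methionine, with no overlap of arrays (log2 difference 0.52, 95% interval 0.09 to 0.95, limma, adjusted p = 0.055). This difference was called with quantile normalization (0.68, adjusted p = 0.013), median centring (0.72, 0.012), array weights (0.54, 0.011), the 6 arrays alone (0.52, 0.016), and without phenylalanine 1 or 2 (0.52, 0.011 and 0.028). The phenylalanine difference (0.38, 95% interval -0.05 to 0.81, adjusted p = 0.18) was called with quantile normalization (0.62, 0.035), with median centring (0.69, 0.024) and without phenylalanine 2 (0.58, 0.034). The intervals of leucine (-0.24 to 0.62) and proline (-0.09 to 0.77) included 0, though the 3 proline arrays lay above those of asparagine, and none of the 10 pairs passed. The 3 pyruvate decarboxylase genes are close relatives in sequence, and whether a probe set took up signal from a relative was not tested.

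THI3 did not pass in any of the 10 pairs. Its signal was 135.9, 114.6 and 133.7 with leucine, 128.1, 95.6 and 101.9 with phenylalanine, 129.1, 147.3 and 136.3 with methionine, 124.4, 101.6 and 120.0 with proline and 60.8, 155.3 and 104.7 with asparagine. The asparagine arrays held both the lowest and the highest value of all 15, so that they overlapped with every other source. The lowest, on the first asparagine array, went with the highest actin ratio of the 15 arrays (3.64), and the part of that ratio in it was not tested. The log2 difference from asparagine was 0.36 with leucine (95% interval -0.16 to 0.88), 0.11 with phenylalanine (-0.41 to 0.63), 0.46 with methionine (-0.05 to 0.98) and 0.21 with proline (-0.31 to 0.72), intervals wide enough to hold changes of up to 1.97-fold. Without the second asparagine array, leucine (0.68, adjusted p = 0.034) and methionine (0.78, 0.0098) were called higher and the F test passed (0.045). Methionine was also called with median centring (0.67, adjusted p = 0.032). The sign turned with the actin ratio as covariate for methionine (-0.032) and proline (-0.22), without asparagine 1 for phenylalanine (-0.24) and proline (-0.15), and without phenylalanine 1 for phenylalanine (-0.013).

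Counted by comparison, 1 of the 5 genes was called with leucine against asparagine (20.9% of all probe sets tested), 2 with phenylalanine (25.6%), 2 with methionine (38.6%) and 1 with proline (13.3%). The first 3 comparisons each held ARO10 as the gene that was higher, and all 4 share the asparagine arrays. The median log2 difference of the 5 genes was 0.19 with leucine, 0.11 with phenylalanine, 0.46 with methionine and 0.34 with proline, beside -0.03, -0.16, -0.09 and -0.08 over all probe sets tested. Quantile normalization moved the last 4 medians to 0.03, 0.01, 0.02 and 0.01, and median centring moved them to 0.05, 0.15, 0.12 and 0.05, and differences are read against these shifts. Among the other pairs, 2 genes were called for leucine against phenylalanine (12.8% of all), 1 for leucine against methionine (18.7%), 2 for leucine against proline (19.3%), 2 for phenylalanine against methionine (22.3%), 3 for phenylalanine against proline (20.7%) and 2 for methionine against proline (22.6%).

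The steps around ARO10 in the Ehrlich pathway were counted from a list of 24 other genes, of which 23 were tested, all but ADH7. Against asparagine, 8 were higher and 8 lower with leucine, 8 and 7 with phenylalanine, 8 and 8 with methionine, and 4 and 2 with proline. Of all probe sets tested, 9.88% were higher and 11% lower with leucine, 7.55% and 18.1% with phenylalanine, 14.3% and 24.2% with methionine, and 4.6% and 8.7% with proline. This split moved with the scaling: of all probe sets, 563 were higher and 1347 lower with phenylalanine, but 847 and 810 after quantile normalization and 1344 and 508 after median centring. With leucine the numbers were 737 and 823, then 913 and 848, then 888 and 660. With methionine they were 1070 and 1806, then 1492 and 1557, then 1738 and 1143, and with proline 343 and 649, then 481 and 547, then 552 and 371. The medians of the list were 0.12, 0.19, 0.13 and 0.01 on the log2 scale, with 0.16, 0.07, 0.23 and 0.06 after quantile normalization and 0.20, 0.50, 0.33 and 0.14 after median centring. With median centring the counts with phenylalanine were 12 higher and 6 lower. ARO9, the aromatic transaminase that Aro80 controls with ARO10, averaged 1139 ± 142 with leucine, 1837 ± 192 with phenylalanine, 818 ± 37.1 with methionine, 172 ± 8.82 with proline and 316 ± 25.6 with asparagine. It was 3.60-fold, 5.81-fold and 2.59-fold higher with leucine, phenylalanine and methionine and 1.83-fold lower with proline (limma, adjusted p = 1.8e-08, 6.7e-10, 4.3e-07 and 2.8e-04). BAT2, the cytosolic branched-chain transaminase, was higher with all 4 sources, by 5.49-fold with leucine, 4.48-fold with phenylalanine, 6.26-fold with methionine and 2.48-fold with proline. The other transaminases of the list, ARO8 and BAT1, were named after their values were seen. ARO8, which acts on aromatic amino acids, was 2.94-fold higher with leucine, 1.34-fold with phenylalanine, 3.45-fold with methionine and 1.72-fold with proline (limma, adjusted p = 1.1e-07, 0.018, 1.9e-08 and 7.7e-04). Its phenylalanine call was lost without asparagine 1, asparagine 3 or phenylalanine 2 (adjusted p = 0.054, 0.093 and 0.053) and in the fit of 6 arrays (0.14). BAT1, the mitochondrial branched-chain transaminase, was 1.45-fold lower with leucine (290 ± 15 against 422 ± 23.3 with asparagine, limma, adjusted p = 0.0042) and 2.11-fold higher with methionine (891 ± 48.1, 6.9e-06). With phenylalanine (534 ± 96.2, adjusted p = 0.060) and proline (531 ± 23.6, 0.083) BAT1 did not pass, though median centring called both (0.0029 and 0.034).

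ARO80 itself was higher with phenylalanine, at 41.8 ± 7.45 against 15.3 ± 1.12 with asparagine (2.71-fold, limma, adjusted p = 2.6e-04). With leucine (17.2 ± 1.80), methionine (15.5 ± 3.35) and proline (11.2 ± 0.603) it did not pass, at adjusted p of 0.64, 1.00 and 0.20. ESBP6, a monocarboxylate permease homologue also known as a target of Aro80, was 2.01-fold higher with leucine, 2.60-fold with phenylalanine and 2.34-fold with methionine, and with proline its log2 difference was 0.028 (adjusted p = 0.92). PDR12, the exporter of weak and fusel acids, was 23.6-fold higher with leucine, 27.3-fold with phenylalanine, 22.8-fold with methionine and 6.02-fold with proline than with asparagine, where it averaged 79.6 ± 44.3. Downstream of the decarboxylase, the alcohol dehydrogenase ADH5 was 6.82-fold higher with methionine (1054 ± 40.2 against 155 ± 5.03). It was also 3.85-fold higher with leucine and 1.96-fold with phenylalanine (limma, adjusted p = 1.2e-07 and 2.6e-04). GRE2, a reductase of aldehydes and ketones, was 12.2-fold lower with methionine (17.6 ± 3.76 against 212 ± 19.2). It was 3.11-fold lower with leucine and 5.94-fold with phenylalanine (limma, adjusted p = 1.1e-05 and 1.3e-07). With proline neither gene passed (0.078 for ADH5 and 0.77 for GRE2).

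**Figure D3:**
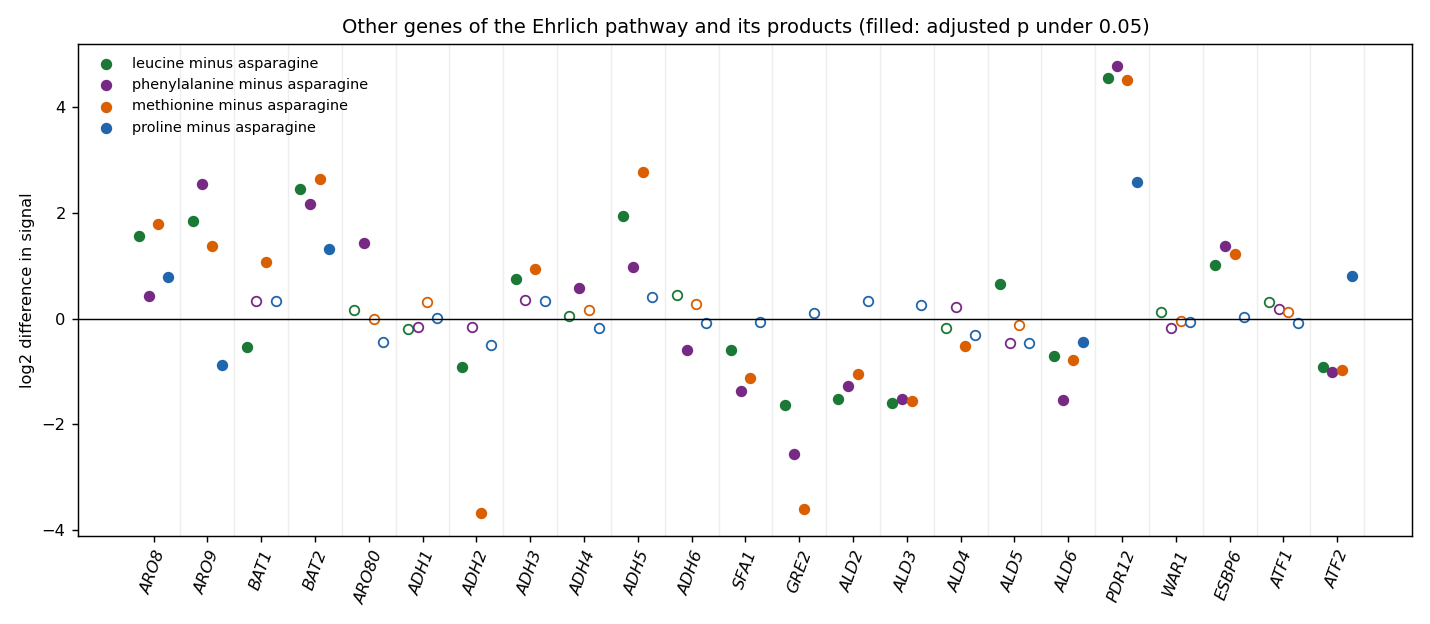
Log2 difference in signal from asparagine of the 23 other Ehrlich pathway genes tested, from transaminases at the left through dehydrogenases to transport and ester formation at the right, filled where the adjusted p was under 0.05. PDR12, ARO9, BAT2 and ESBP6 lay above 0 with leucine, phenylalanine and methionine, and GRE2 lay below it with each of them.

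The supply and other fates of pyruvate, the substrate of the PDC enzymes, were counted on a list of 21 genes. The list covers pyruvate kinase, the pyruvate dehydrogenase complex, pyruvate carboxylase, the mitochondrial pyruvate carrier, lactate use and acetyl-CoA synthetase. Against asparagine, 6 were higher and 5 lower with leucine, 5 and 1 with phenylalanine, 7 and 6 with methionine, and 4 and 2 with proline, beside the 9.88% and 11%, 7.55% and 18.1%, 14.3% and 24.2%, and 4.6% and 8.7% of all probe sets tested. The medians of the list were -0.03, 0.06, 0.10 and -0.10 on the log2 scale, and with median centring they were 0.05, 0.37, 0.31 and 0.04, so that the sign turned with leucine and proline. Quantile normalization gave -0.0082, 0.15, 0.21 and -0.03. With median centring the counts were 9 and 0 with phenylalanine and 4 and 0 with proline, and with quantile normalization they were 4 and 3 and 4 and 4. ACS1, an acetyl-CoA synthetase of the route from acetaldehyde onward, was 1.94-fold lower with leucine (1140 ± 150 against 2201 ± 81.6) and 2.93-fold lower with methionine (755 ± 93.7). With phenylalanine it was 1.29-fold lower (1714 ± 167, limma, adjusted p = 0.048). JEN1, the lactate and pyruvate permease, was 2.42-fold lower with methionine. It was also lower with leucine (1.60-fold, limma, adjusted p = 0.0015) and proline (1.35-fold, 0.045). MPC2, a subunit of the mitochondrial pyruvate carrier, was 1.66-fold higher with leucine. Smaller increases were called with phenylalanine (1.26-fold, limma, adjusted p = 0.047) and methionine (1.40-fold, 0.0044). Of the pyruvate dehydrogenase complex, LPD1 was 1.79-fold and PDB1 1.36-fold higher with phenylalanine, the second call lost in a fit of the 6 arrays alone (adjusted p = 0.093). LPD1 was also higher with leucine (1.42-fold, limma, adjusted p = 0.0027), methionine (1.33-fold, 0.0063) and proline (1.26-fold, 0.047). With proline, PDA1 (1.48-fold, adjusted p = 0.013) and PDB1 (1.33-fold, 0.031) were higher and MPC3, another carrier subunit, was 1.35-fold lower (0.021). PDA1 was also higher with phenylalanine (1.39-fold, limma, adjusted p = 0.017) and methionine (1.55-fold, 0.0018). MPC3 was also lower with leucine (1.38-fold, 0.0076) and methionine (1.72-fold, 8.8e-05), but higher with phenylalanine (1.25-fold, 0.049). For these genes, alternatives were run only in the comparisons by which each was chosen. Adding the actin ratio to the fit ended the proline calls of PDA1, PDB1 and MPC3 (adjusted p = 0.074, 0.20 and 0.14). Adding the hybridisation control signal did so too (0.11, 0.26 and 0.17). Median centring ended that of MPC3 (0.21). PDA1 was also lost without asparagine 3, proline 1 or proline 3 (0.066, 0.060 and 0.051). PDB1 was lost without asparagine 1 or 3 or any 1 proline array (0.072 to 0.11), and MPC3 without asparagine 1 or 3 or proline 1 or 2 (0.064 to 0.11).

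Thiamine diphosphate is the cofactor of the family, and Thi3 acts on its synthesis. Of 22 listed genes of thiamine regulation, uptake and synthesis, 14 had a probe set of their own and were tested, while 8 (THI5, THI11, THI12, THI13, SNZ2, SNZ3, SNO2 and SNO3) share probe sets and are not given. Against asparagine, 1 was higher and 2 lower with leucine, 0 and 1 with phenylalanine, 0 and 3 with methionine, and 1 and 0 with proline. The share of all probe sets called in either direction was 20.9%, 25.6%, 38.6% and 13.3%, and 3, 1, 3 and 1 of the 14 genes were called. The medians of the list were -0.10, -0.00069, 0.05 and 0.13 on the log2 scale, with -0.07, 0.23, 0.10 and 0.21 after quantile normalization and -0.02, 0.31, 0.25 and 0.26 after median centring. With methionine the counts turned to 4 higher and 2 lower under quantile normalization and to 4 and 1 under median centring, and with phenylalanine to 1 and 1 and to 2 and 1. With proline they were 3 and 0 and 2 and 0. THI4, which makes the thiazole part of thiamine, was lower with leucine (35.6 ± 6.29), phenylalanine (45 ± 7.67) and methionine (24.8 ± 5.07) than with asparagine (102 ± 18.2), by 2.85-fold, 2.25-fold and 4.12-fold (limma, adjusted p = 1.1e-04, 0.0013 and 4.2e-06). THI73, a putative permease, was 2.27-fold higher with leucine, and THI20, a kinase of the pyrimidine part, was 1.52-fold lower with methionine (a call lost with median centring, adjusted p = 0.052). THI20 was also 1.48-fold lower with leucine (limma, adjusted p = 0.011), a call not rerun under the alternatives. THI7, the thiamine transporter, was 1.41-fold higher with proline (adjusted p = 0.044), a call lost in 15 of the 27 alternatives. PET18 with phenylalanine (35.1 ± 12.6 against 53.8 ± 2.03, adjusted p = 0.054, and 0.042 with the replicate number as a block) and THI22 with proline (63.2 ± 6.07 against 88.9 ± 5.75, 0.067) did not pass, and each was called in 5 of the 27 alternatives. THI22 was called 1.44-fold lower with methionine (61.9 ± 0.814, limma, adjusted p = 0.025), a call not rerun under the alternatives.

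The partners of Thi3 gave no call against asparagine. THI2 averaged 26.7 ± 5.24 with leucine, 29.6 ± 3.36 with phenylalanine, 28.3 ± 1.56 with methionine, 30.9 ± 2.51 with proline and 22.7 ± 2.87 with asparagine, with adjusted p of 0.45, 0.15, 0.18 and 0.13. It was called higher with quantile normalization for phenylalanine (0.74, adjusted p = 0.016), methionine (0.55, 0.039) and proline (0.68, 0.035), and with median centring for the first pair of these (0.69, 0.014 and 0.53, 0.037). Array weights also called proline (0.51, 0.027). PDC2, which activates both thiamine genes and PDC1 and PDC5, averaged 121 ± 4.6, 113 ± 18.9, 125 ± 15.6, 94.5 ± 19.2 and 128 ± 14.6 in the order leucine, phenylalanine, methionine, proline and asparagine, with adjusted p of 0.81, 0.44, 0.88 and 0.096. Of 7 other enzymes that bind the cofactor, 2 were higher and 2 lower with leucine, 4 and 2 with phenylalanine, 4 and 2 with methionine, and 2 and 0 with proline, where 20.9%, 25.6%, 38.6% and 13.3% of all probe sets were called in either direction. PDA1 and PDB1 are among the 7, were also counted with the pyruvate genes, and gave the 2 calls with proline. Both of these calls were lost with either covariate, as given above. The counts did not change with quantile normalization and were 3 and 2, 5 and 2, 5 and 2, and 3 and 0 with median centring. The medians of these 7 genes were 0.25, 0.44, 0.57 and 0.41 on the log2 scale, and 0.32, 0.75, 0.77 and 0.54 with median centring. The minor transketolase TKL2 was 17.5-fold lower with leucine (14.6 ± 1.14 against 255 ± 6.72) and 6.53-fold lower with phenylalanine (45.3 ± 31.2), while the major one, TKL1, was 1.87-fold and 1.91-fold higher. Both were also called with methionine, TKL2 2.89-fold lower and TKL1 1.56-fold higher (limma, adjusted p = 0.0021 and 4.9e-04). With methionine, ILV2, the acetolactate synthase, was 1.99-fold higher and PXP1, a peroxisomal protein of this enzyme family, 2.36-fold lower. ILV2 was also 1.56-fold higher with leucine (limma, adjusted p = 0.0072). PXP1 was also lower with leucine (2.55-fold, limma, adjusted p = 2.5e-04) and phenylalanine (1.93-fold, 0.0049).

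The genes whose signal followed ARO10 most closely were found by Pearson's r over the 15 arrays among 5387 other genes, as a description, since the 15 arrays fall into 5 groups and r mostly follows the group means. They were CIT2, the peroxisomal citrate synthase of the retrograde response (r = 0.98), ARO9 (0.98), ESBP6 (0.96), DLD3, a cytosolic D-lactate dehydrogenase of the retrograde response (0.96), and FIT2, a cell wall protein that retains siderophore iron (0.95). CIT2 averaged 1186 ± 112 with leucine, 1458 ± 325 with phenylalanine, 1076 ± 121 with methionine, 239 ± 17.4 with proline and 237 ± 35.1 with asparagine. DLD3 averaged 262 ± 52.5, 242 ± 42.0, 224 ± 31.5, 66.7 ± 5.41 and 57.7 ± 11.1 in the same order. In each of these genes the means with leucine, phenylalanine and methionine were above those with proline and asparagine.

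PDC6 was followed most closely by DFG5, a putative cell wall mannosidase (r = 0.96), ERG5, the C-22 sterol desaturase (0.94), FLC2, a membrane protein linked to flavin transport (0.93), the little-studied reading frame YPR145C-A (0.92) and CRG1, a methyltransferase (0.92). ERG5 averaged 296 ± 20.4 with leucine, 232 ± 31.5 with phenylalanine, 215 ± 15.5 with methionine, 692 ± 32.9 with proline and 468 ± 28.4 with asparagine. YPR145C-A averaged 18 ± 5.2, 13.4 ± 0.764, 8.33 ± 1.37, 219 ± 32.8 and 147 ± 25.1 in the same order. Like PDC6, these genes had their highest mean with proline. For PDC1 the closest were looser: TMC1, a zinc finger protein (r = 0.89), CCT3, a subunit of the cytosolic chaperonin (0.88), the reading frame YJL028W (0.87), ARO7, the chorismate mutase (0.84), and DID2, a factor of endosomal sorting (0.82). PDC1 and each of these genes had their lowest value on the same array, phenylalanine 2, and r without it was not computed. YJL028W was dim, averaging 8.47 with leucine, 5.23 with phenylalanine and 7.97 with asparagine, under the 25th percentile of all signals (9.9).

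**Figure D4:**
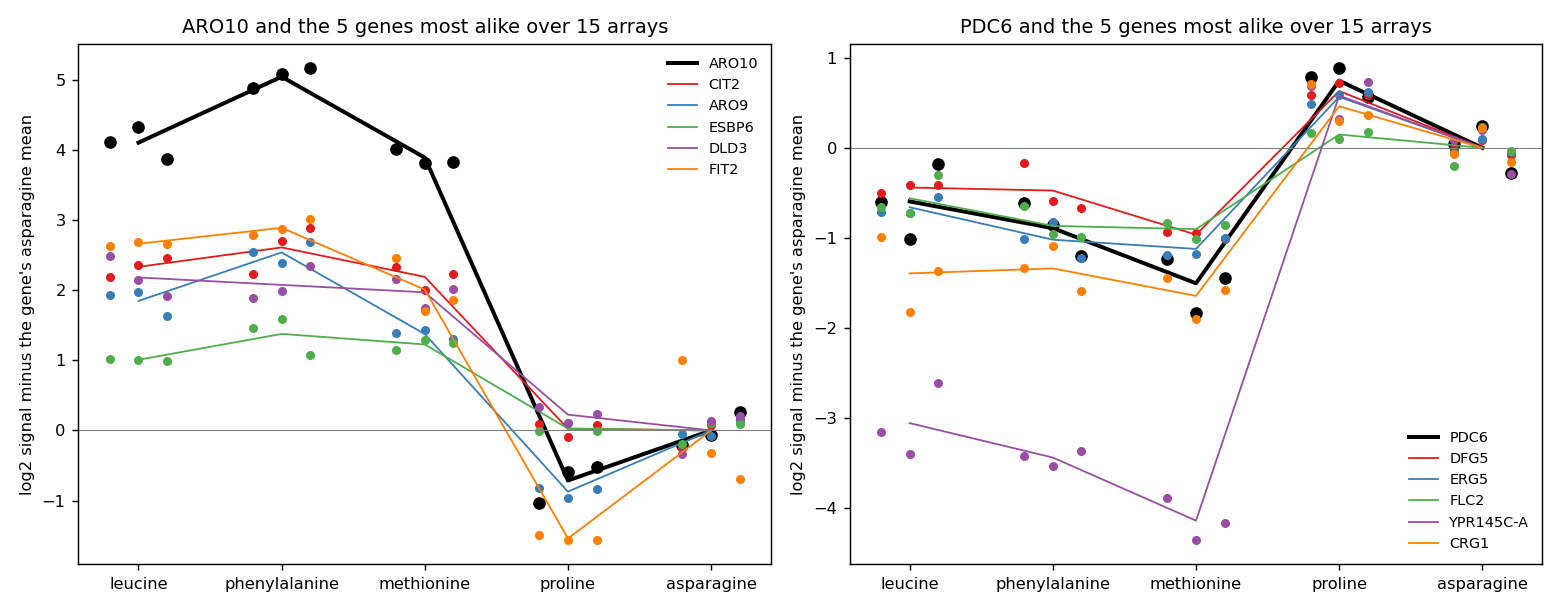
Log2 signal minus the mean of the asparagine arrays for ARO10 (left) and PDC6 (right), in black, and the 5 genes most alike by Pearson's r over 15 arrays, with points for arrays and lines through the group means. The genes beside ARO10 were high with leucine, phenylalanine and methionine with smaller steps than ARO10, and those beside PDC6 peaked with proline.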

How the data were processed

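Messenger RNA of 15 chemostat samples was measured on single-colour Affymetrix YG_S98 arrays. The authors deposited a linear signal intensity for every probe set of each array, and the submitters' processing notes name MAS5 as the software. Neither its version nor its scaling target is stated there. After removal of 60 control probe sets from 9335, signals below 1.9 (the median of the arrays' 10th percentiles) were set to 1.9 and values were log2 transformed. Tests covered 7459 probe sets (80.4%) whose signal exceeded the 25th percentile of the array on 3 or more arrays. Symbols come from the platform annotation and locus names from RefSeq R64. A model with a mean for each source was fitted to all 15 arrays with limma 3.58.1 (R 4.3.3), with a variance trend. Two-sided p-values were adjusted by Benjamini-Hochberg over the probe sets tested in each comparison, at a threshold of 0.05. The procedure was also run on simulated data with independent noise. Such data cannot show how the results depend on scaling or on single arrays. Folds on the floored log2 scale understate changes of dim probe sets. Where a gene had several probe sets, the brightest was used. Genes named are the 5 decarboxylases, the 5 genes most alike each of them past the F test, up to 2 genes per list and comparison with asparagine by smallest adjusted p, and ARO9, ARO80, ESBP6, BAT2, PDR12, THI2 and PDC2. ARO8 and BAT1 were added after their values were seen. Members and lists were chosen with earlier results of these data known. Alternatives changed the scaling, floor, filter, variance model, weights, covariates, block or arrays.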

Additional observations from a re-analysis of the deposited data

How the results depend on the processing

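For the 5 F tests and 20 differences from asparagine, 265 of 295 values under the 12 alternatives other than leaving out an array kept their direction and their side of the threshold. The higher ARO10 with leucine, phenylalanine and methionine, the lower PDC6 with methionine and the F tests of ARO10, PDC1 and PDC6 kept theirs in all alternatives run, with an array left out too. The cause of each change below was not tested. Quantile normalization gave for PDC1 with phenylalanine -0.58, for PDC5 an F test at 0.0434, 0.62 with phenylalanine and 0.68 with methionine, and for PDC6 -0.57 with phenylalanine (not called) and 0.90 with proline. Median centring gave -0.58 for ARO10 with proline (not called), 0.66 for PDC1 with methionine, an F test at 0.0355 for PDC5, with 0.69 for phenylalanine and 0.72 for methionine, -0.58 (not called) and 0.88 for PDC6 with phenylalanine and proline, and 0.67 for THI3 with methionine. Array weights gave 0.50 for PDC1 and 0.54 for PDC5 with methionine, an F test at 0.0425 for PDC5, and -0.74 (not called) and 0.82 for PDC6 with phenylalanine and proline. The actin ratio as covariate gave -0.67 for ARO10 with proline (not called) and turned THI3 to -0.032 with methionine and -0.22 with proline. The hybridisation control signal gave -0.51 for ARO10 with proline (not called), -0.49, 0.78 and 0.79 for PDC1 with phenylalanine, methionine and proline, and -0.86 for PDC6 with leucine. Fits of the 6 arrays compared gave 0.45 for PDC1 and 0.52 for PDC5 with methionine and 0.75 for PDC6 with proline. Values not marked as not called were called there, and F tests are given by their adjusted p.

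Smaller differences, none called in either form, turned sign. THI3 with phenylalanine against proline became 0.043 with quantile normalization, 0.084 with median centring, 0.35 with the actin ratio and 0.064 with the hybridisation control signal, and with the actin ratio its other pairs became -0.10 (leucine against phenylalanine), 0.067 (leucine against methionine) and 0.16 (phenylalanine against methionine). PDC5 with phenylalanine against methionine became 0.072 with array weights and 0.13 with the actin ratio, and against proline -0.080 with the hybridisation control signal, which also gave -0.0099 for PDC1 with methionine against proline and -0.0090 for PDC6 with leucine against phenylalanine. Against asparagine, ARO80 with methionine became 0.23, 0.20, 0.068, 0.12 and 0.15 with quantile normalization, median centring, array weights and the 2 covariates in that order, and ESBP6 with proline -0.0067, -0.018, -0.071 and -0.20 with the same settings except median centring. PDC2 became 0.00083 with phenylalanine and 0.089 with methionine under quantile normalization and 0.0044, 0.12 and 0.17 with leucine, phenylalanine and methionine under median centring.

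Leaving out each array in turn gave F test adjusted p of 1.0e-11 to 2.8e-11 for ARO10, 3.4e-04 to 0.020 for PDC1, 0.048 to 0.43 for PDC5, 1.8e-05 to 1.9e-04 for PDC6 and 0.045 to 0.58 for THI3. In the order leucine, phenylalanine, methionine and proline against asparagine, the differences were 3.99 to 4.24, 4.94 to 5.18, 3.79 to 4.03 and -0.82 to -0.55 for ARO10, 0.10 to 0.24, -0.70 to -0.17, 0.39 to 0.52 and 0.27 to 0.43 for PDC1, and 0.12 to 0.26, 0.10 to 0.58, 0.43 to 0.59 and 0.26 to 0.41 for PDC5. They were -0.80 to -0.39, -1.03 to -0.74, -1.65 to -1.34 and 0.60 to 0.86 for PDC6 and 0.0021 to 0.68, -0.24 to 0.43, 0.11 to 0.78 and -0.15 to 0.53 for THI3. Smaller differences that turned sign without 1 array ran from -0.42 to 0.068 for PDC5 with phenylalanine against methionine, -0.24 to 0.25 against proline, and -0.39 to 0.095 for leucine against phenylalanine. Against asparagine, they ran from -0.16 to 0.14 for ARO80 with methionine, -0.067 to 0.078 for ESBP6 with proline, -0.16 to 0.0073 for PDC2 with leucine and -0.12 to 0.057 for PDC2 with methionine. With the replicate number as a block, all 25 results stayed on their side of the threshold, with ARO10 at 4.10 ± 0.16 (SE) for leucine and 1514 probe sets called in that comparison, against 1560 without it. Same-numbered arrays of different groups had deviations that correlated at -0.25 to 0.40 (median 0.015), and different-numbered ones at -0.42 to 0.42 (median 0.0022). Of 15 arrays, 8 correlated best with an array of their own number. Since the ranges overlap, these values cannot decide whether the numbers pair the arrays. No other probe set of the 5 genes exists on these arrays under the rule, so that alternative was not run.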
